A study of Arabidopsis thaliana with 18 samples.

Results

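The subject is a set of 169 probe sets whose signal was lower in salicylic acid (SA) treated plants of Arabidopsis thaliana than in their controls on the first of 3 runs of 3 arrays of each treatment. A probe set is a group of short probes that reads 1 or several transcripts. Members were chosen by their measured signal: each had a median log2 signal on SA arrays 100 to 102 at least 1.2 below the median on control arrays 91 to 93, and a control median of at least 6. They were 169 of 22746 probe sets other than array controls, and 2.02% of the 8386 that reached the control minimum. A difference of 1 on this scale is a 2-fold difference. Of the members, 72 carried 1 gene (16 with a symbol, 56 with a locus only), 6 carried several genes and 91 were not named here.

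The samples were 18 Affymetrix ATH1 arrays of the accession Tsu-1, a natural inbred line. The 9 SA arrays were of plants given 0.3 mM SA in 0.02% silwet, and the 9 control arrays were of plants given 0.02% silwet alone. Silwet is a surfactant that helps a solution spread over leaves; both treatments carry it, and no untreated plants were analysed here. Array titles number SA arrays 100 to 108 and silwet arrays 91 to 99, with replicate numbers 1 to 3 in each run of 3. These runs are called triplet 1 (SA 100 to 102, silwet 91 to 93), triplet 2 (SA 103 to 105, silwet 94 to 96) and triplet 3 (SA 106 to 108, silwet 97 to 99). The labels give no tissue, age or time after treatment, and do not say what separates the triplets or whether arrays came from separate plants. A p-value here thus speaks only to array-to-array scatter, whose source may be technical.

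SA is the plant hormone of defence against pathogens that feed on living cells. It acts through the NPR receptors and TGA transcription factors, and it is known both to switch on defence genes and to lower many genes of growth and metabolism. In leaves, starch made by day is broken down at night by a chain of enzymes that first phosphorylate the granule and then cut its chains. The sugars are rebuilt into sucrose or held in the vacuole by transporters and invertase.

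Leaf markers were abundant, with median log2 signals of 11.8 for LHCB4.1 and 11.6 for RCA over the 18 arrays, while the pollen marker AGL66 had a median of 2.24. The root-associated PYK10, the only 1 of 4 chosen root markers named here, ranged over 6.76 to 8.95 with a median of 7.51. Whether roots were part of the samples was not tested. SA array 100 stood apart: its mean correlation with the other arrays was the lowest at 0.899, with a median signal of 26.0. Silwet array 97 followed at 0.915 with 27.4. The other 16 arrays lay between 0.920 and 0.939. The actin control probes read 3.19 more log2 units at the 3' than at the 5' end on array 100 and 3.42 on silwet array 91. The others had 1.5 to 2.38, and this reading is a common check on RNA integrity. For GAPDH control probes it was 0.86 on array 100, 0.66 on SA array 103 and 0.55 on silwet array 97. It was only 0.14 on array 91, within the -0.48 to 0.31 of the others. Array 100 correlated at 0.917 with silwet array 97 and 0.919 with silwet array 99, against 0.902 and 0.908 with its own partners, SA arrays 101 and 102, and 0.894 with silwet array 98. Whether a label or the sampling differs for these arrays was not tested, and the differences of triplets 1 and 3 both rest on them. What part any of this plays in the results below was not tested.

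Triplet 1 chose the members, so its values are description without a test. The difference between SA and silwet medians had a median of -1.43 over members, from -2.74 to -1.2, against -0.08 over the 15923 probe sets tested elsewhere. All 3 SA arrays lay below all 3 silwet arrays for 110 of 167 members with enough signal to be tested, beside a background of 10.3% that cannot be read against them. Just inside the threshold were AT5G27930, TBL25 and AT4G24830, each at -1.2 after rounding. Just outside were AT2G38240, also -1.2 after rounding, AT1G04990 at -1.18 and AT3G17120 at -1.17.

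The member with the lowest difference was AT5G62360, of the family of inhibitors of pectin methylesterase and invertase. Its log2 signal was 8.19, 6.26 and 6.66 on SA arrays 100, 101 and 102, against 9.73, 9.39 and 9.33 on silwet arrays 91, 92 and 93. The groups did not overlap, and array 100 was the highest of the SA arrays. In triplet 2 it read 9.07, 9.84 and 9.22 with SA and 9.01, 9.27 and 8.74 with silwet, and in triplet 3 10.06, 10.08 and 10.16 with SA and 9.85, 9.53 and 10.12 with silwet. The groups overlapped in both later triplets, so only the 3 first SA arrays were low. AT1G68600, of the aluminium-activated malate transporter family, had 6.92, 5.74 and 5.26 with SA and 8.60, 8.18 and 6.95 with silwet in triplet 1. In triplet 2 it had 8.06, 8.46 and 8.01 with SA and 8.62, 8.75 and 8.10 with silwet. Its triplet 3 values were 8.69, 8.42 and 8.27 with SA and 8.88, 8.48 and 8.09 with silwet. Again the first SA arrays were the lowest of all its arrays, although silwet array 93 came close to array 100, with an SA median at -2.70 from the level of the later triplets.

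**Figure D1:**
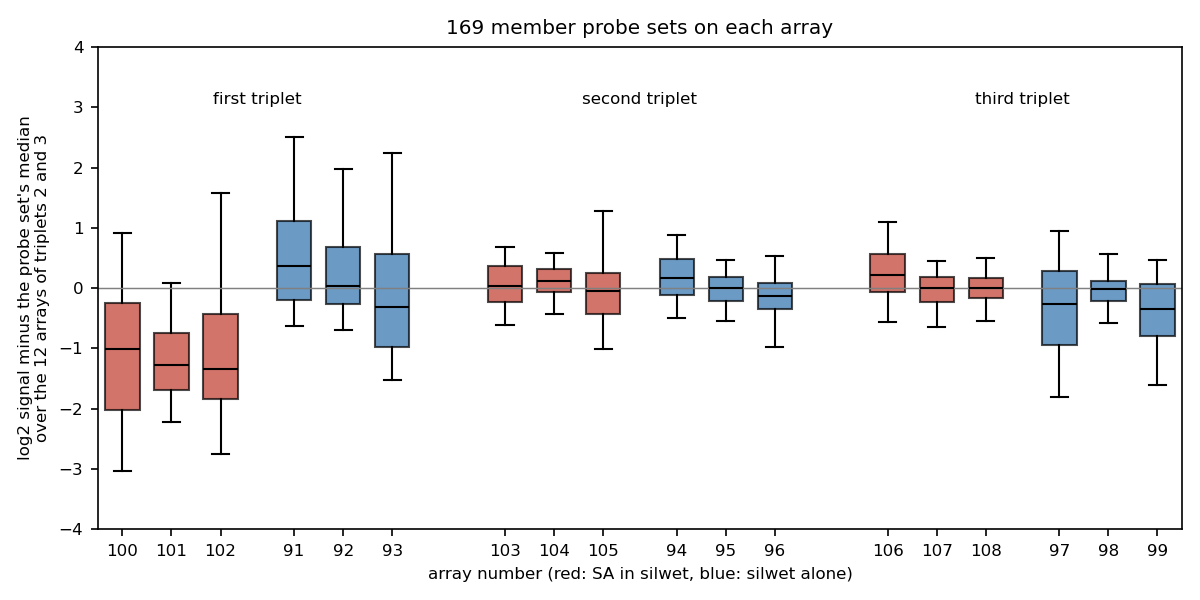
Log2 signal of the 169 members on each array, minus each probe set's median over the 12 arrays of triplets 2 and 3 (boxes: quartiles and median; whiskers: 5th to 95th percentile; SA red, silwet blue). SA arrays 100 to 102 have medians of -1.02 to -1.35, and all other arrays lie between -0.34 and 0.37, with silwet arrays 97 and 99 at -0.27 and -0.34.

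To see which treatment had moved, each member was set against its level, the median over the 12 arrays of triplets 2 and 3. The median member lay at -1.02, -1.27 and -1.35 from its level on SA arrays 100, 101 and 102, while on silwet arrays 91, 92 and 93 it stood at 0.37, 0.04 and -0.31. As RNA came from whole samples, fewer cells of a type and less RNA per cell cannot be told apart. Members were of 2 kinds, split after their values were seen. In 126 members, 55 of them with 1 gene, the SA median lay farther from the level; their medians were -1.48 with SA and -0.09 with silwet. In the other 43, 17 of them with 1 gene, the silwet median lay farther away, at 1.54, with SA at 0.03. Single members of the 43 had SA medians from -0.96 to 2.59 from the level, and 26 of them lay within 0.6 of it.

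AT5G47330, an alpha/beta hydrolase, showed the second kind. It had 5.30, 3.66 and 3.75 with SA and 6.91, 6.45 and 5.89 with silwet in triplet 1, but only 2.66 to 4.46 on SA arrays and 3.50 to 4.37 on silwet arrays of triplet 2. The 3 first silwet arrays were its highest arrays of all. JRG21, a 2-oxoglutarate-dependent oxygenase named for its regulation by jasmonate, had 5.15, 4.72 and 7.05 with SA and 7.25, 6.68 and 7.27 with silwet. Here SA array 102 reached the silwet range, so the groups overlapped. AT2G34930, a leucine-rich repeat protein, lay above its later level in both treatments of triplet 1, by 1.2 with SA and 2.65 with silwet. The reverse held for AT1G67750, a pectate lyase, which lay at -2.97 from its level with SA and at -1.24 with silwet.

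**Figure D2:**
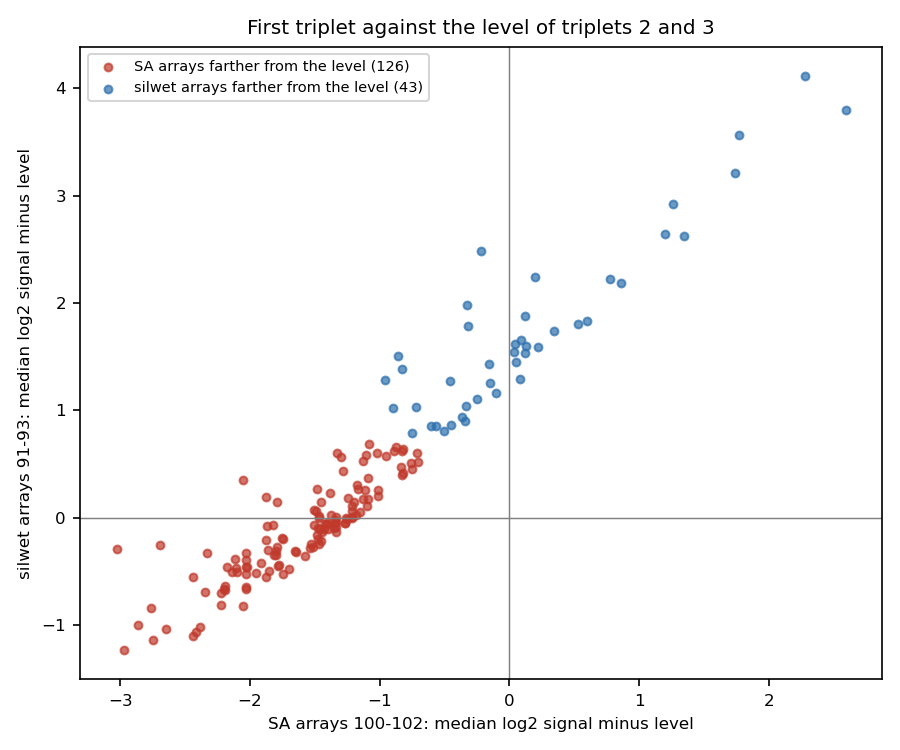
Each point is 1 of the 169 members: the median of SA arrays 100 to 102 (x axis) and of silwet arrays 91 to 93 (y axis), both in log2 units minus the member's level over triplets 2 and 3. The 126 red points, with SA farther from the level, have a median of -1.48 on the x axis; the 43 blue points, with silwet farther away, have a median of 1.54 on the y axis.

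In triplet 2 the members' difference was near 0. SA minus silwet, as a difference of medians, had a median of 0.07 over members (quartiles -0.14 and 0.31) and -0.03 over all tested probe sets. It was within 0.6 of 0 for 147 of 169 members (87.0%), and for 93.6% of all tested probe sets. Only 1 member, a probe set not named here and too dim to be tested, stayed at -1.2 or lower, beside a background of 3.89% of the 22746 probe sets, and 0 were at 1.2 or higher (background 3.88%). Triplet 2 entered no part of the rule, so it could be tested, in a limma model of the 12 later arrays adjusted over all 15923 tested probe sets. No member and no other probe set passed an adjusted p of 0.05 (background 0%). At an unadjusted p under 0.05, 3 of 167 members were higher and 0 lower with SA, beside backgrounds of 1.56% higher and 1.22% lower. SA arrays all lay below silwet arrays for 0 of 167 members (background 5.56%) and all above for 3 (background 4.08%).

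In triplet 3 the members as chosen leaned the other way, but the list chosen without array 100 did not, with a median difference of 0.021. The median difference was 0.30 over members (quartiles -0.06 and 0.63) and 0.04 over all tested probe sets. It was at 0.6 or higher for 50 of 169 members (29.6%, against 13.7% of all tested), and at -0.6 or lower for 9. At 1.2 or higher stood 17 members, 10.1% beside a background of 5.56%, and at -1.2 or lower 2, beside 3.4%. No member passed an adjusted p of 0.05 in limma (background 0%, lowest adjusted p 0.438). At an unadjusted p under 0.05, 37 of 167 members were higher (22.2%, background 8.17%) and 5 lower (background 3.17%).

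The lean differed by silwet array. Of the 50 members at 0.6 or higher, 48 had array 98 above both 97 and 99, as had 93.4% of the 2174 tested probe sets at 0.6 or higher. The mean correlation of array 98 with the other arrays was 0.937 and its median signal 34.9. Arrays 97 and 99 had 0.915 and 0.932, with median signals of 27.4 and 28.0. Which of these silwet arrays departs from the rest was not tested. Without array 98, limma called 35 of 167 members higher with SA in triplet 3 (21.0%, background 10.4%) and 2 lower (background 2.91%). Without array 97, or without array 99, it called 0 probe sets. Calls without array 98 thus rest on silwet arrays 97 and 99 alone. With array weights in the fit, in which arrays far from their group count less, it called 70 higher (background 25.4%) and 18 lower (background 15.0%). The weights were 0.257, 0.242 and 4.195 on silwet arrays 97, 98 and 99. The silwet side of triplet 3 thus rests mostly on array 99 in every weighted result. With 98 as the only silwet array, the members' median difference was 0.09, against 0.34 with 97 alone and 0.37 with 99 alone. SA arrays all lay above silwet arrays for 20 members (background 4.6%) and all below for 3 (background 4.57%). They lay above for 68 and below for 12 without array 98 (backgrounds 26.5% and 18.2%), and above for 31 without array 97 (background 7.96%). Between silwet triplets 3 and 2 no member was called (background 0.00628%, or 1 probe set). At an unadjusted p under 0.05, 39 of 167 members were lower in triplet 3 (23.4%, background 12.6%) and 11 higher (6.59%, background 6.8%). Without array 98, 36 were lower (background 15.3%) and 9 higher (background 6.9%), and with array weights 77 were lower (background 30.4%) and 23 higher (background 18.2%). Between the SA triplets no member was called in any of these fits. The change in treatment difference from triplet 2 to triplet 3 was called for no member, and for 7 in the fit without array 98, all upward (backgrounds 4.35% upward and 0.854% downward). With array weights this change was called for 43 members upward (background 16.9%) and 15 downward (background 9.38%). Averaged over triplets 2 and 3, no member was called without weights. With array weights 18 were higher with SA (background 4.7%) and 2 lower (background 2.52%). At an unadjusted p under 0.05, 13 of 167 were higher with SA (7.78%, background 1.7%) and 0 lower (background 1.81%). In 3 of the 72 members with 1 gene every replicate number changed sign between triplets 2 and 3, beside a background of 6.37%.

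**Figure D3:**
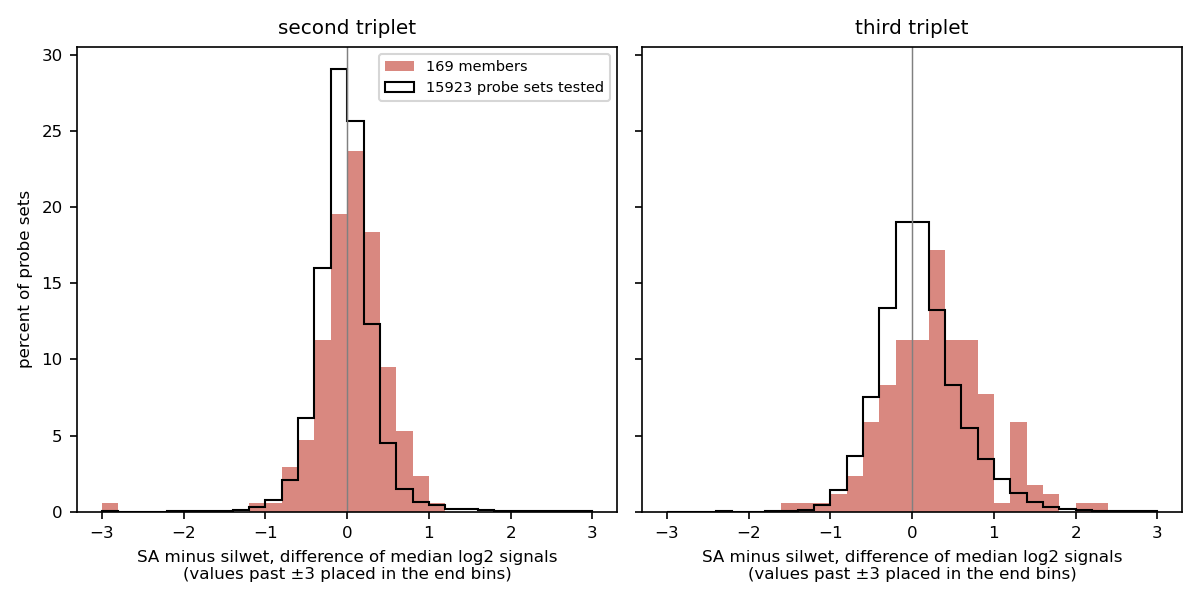
Share of probe sets (percent) by the difference of median log2 signals, SA minus silwet, in triplet 2 (left) and triplet 3 (right), for the 169 members (red) and all 15923 tested probe sets (black line). Medians of members are 0.07 and 0.30, against -0.03 and 0.04 over all tested probe sets.

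Leaving out array 100 from the rule gave a list of 213 probe sets. It held 128 of the members (75.7% of the 169, and 60.1% of that list), including 59 of the 72 with 1 gene. On array 100 alone, 101 members were 1.2 or more below the silwet median, against 124 on array 101 and 134 on array 102, and only 21 were so on all 3. Array 100 was the lowest SA array for 63 members and the highest for 73. The 63 lowest on array 100 had a median of -2.22 from their level there, and of -1.01, 0.01 and -0.75 on silwet arrays 97, 98 and 99. The other 106 had -0.44 on array 100 and 0.10, -0.05 and -0.05 on those silwet arrays. Of the 63, 60 lay below their level on array 97, 27 on 98 and 59 on 99; of the other 106, 44, 65 and 59 did. The 128 members kept without array 100 had median differences of 0.09 in triplet 2 and 0.16 in triplet 3. Over the whole list of 213 the triplet 3 median was 0.021, no higher than the 0.04 over all tested probe sets.

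Of the named members, 7 serve starch and sugar, a group put together by function after values were seen, as were the groups that follow. PWD, the kinase that adds a phosphate to starch chains already phosphorylated by GWD, had 6.50, 7.67 and 6.58 on SA arrays and 8.47, 8.61 and 7.12 on silwet arrays of triplet 1. In triplet 2 it had 8.82, 9.33 and 7.90 with SA and 9.52, 9.23 and 8.03 with silwet. In triplet 3 it had 9.59, 9.34 and 8.71 with SA and 7.44, 9.27 and 7.56 with silwet. The first SA arrays and silwet arrays 93, 97 and 99 were its lowest. Its fitted triplet 3 difference was 1.12 ± 0.51 (SE, adjusted p = 0.438 in limma), and 1.71 ± 0.45 without array 98 (adjusted p = 0.029).

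ATSPS4F, a sucrose-phosphate synthase, was low on much the same arrays. It had 3.70, 5.38 and 4.16 with SA and 6.02, 6.74 and 5.62 with silwet in triplet 1, then 6.73, 7.61 and 6.86 with SA and 8.03, 7.50 and 7.01 with silwet in triplet 2. In triplet 3 it had 7.49, 7.12 and 6.98 with SA and 5.24, 7.03 and 5.91 with silwet. Silwet arrays 97 and 99 were again low. TMT2, a sugar carrier of the vacuole membrane, had 5.84, 6.02 and 5.93 with SA and 7.26, 7.35 and 7.06 with silwet in triplet 1. Its triplet 2 values were 8.14, 8.21 and 7.50 with SA and 8.09, 7.93 and 7.69 with silwet, and those of triplet 3 were 8.43, 7.95 and 7.61 with SA and 6.61, 7.59 and 7.07 with silwet. In triplet 3 its SA and silwet arrays did not overlap.

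DPE1, the plastid enzyme that recycles short glucans during starch breakdown, lay at -2.44 from its level with SA and at -1.10 with silwet in triplet 1. AT3G55760, a starch-binding protein of the chloroplast, lay at -2.18 with SA and at -0.46 with silwet. AT1G62660, a vacuolar invertase that splits sucrose, belonged to the second kind, at 0.09 with SA and 1.66 with silwet. The group's median lay at -0.55, -0.41 and -0.75 from the level on silwet arrays 91, 92 and 93. On silwet arrays 97, 98 and 99 it lay at -1.39, 0.04 and -0.69. The group's triplet 2 differences ran from -0.65 to 0.21, 5 of 7 below 0. Its triplet 3 median was 0.76, and 4 of the 7 (PWD, ATSPS4F, TMT2 and DPE1) were called higher with SA in triplet 3 without array 98. The share was 21.0% over members, beside a background of 10.4%. As the 7 were picked after values were seen, their share is description only. A separate sugar and starch list, made from gene names, held only SWEET17 and DPE1 of the 7. Its 11 tested probe sets had a triplet 3 median of -0.55. Array 100 was the lowest SA array for 5 of 7, and 5 of 7 stayed in the list made without it; AT1G62660 and DPE1 did not.

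SWEET17, the fructose carrier of the vacuole membrane, ran against the group. It had 7.13, 5.77 and 6.36 with SA and 8.20, 7.16 and 7.83 with silwet in triplet 1. In triplet 2 it had 7.22, 6.88 and 7.46 with SA and 7.29, 6.94 and 7.50 with silwet, and in triplet 3 8.02, 7.32 and 7.45 with SA and 8.77, 7.59 and 8.72 with silwet. Silwet arrays 97 and 99 were its highest arrays of all. The fitted triplet 3 difference was -0.76 ± 0.31 (SE, adjusted p = 0.438 in limma), and -1.15 ± 0.25 without array 98 (adjusted p = 0.016).

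**Figure D4:**
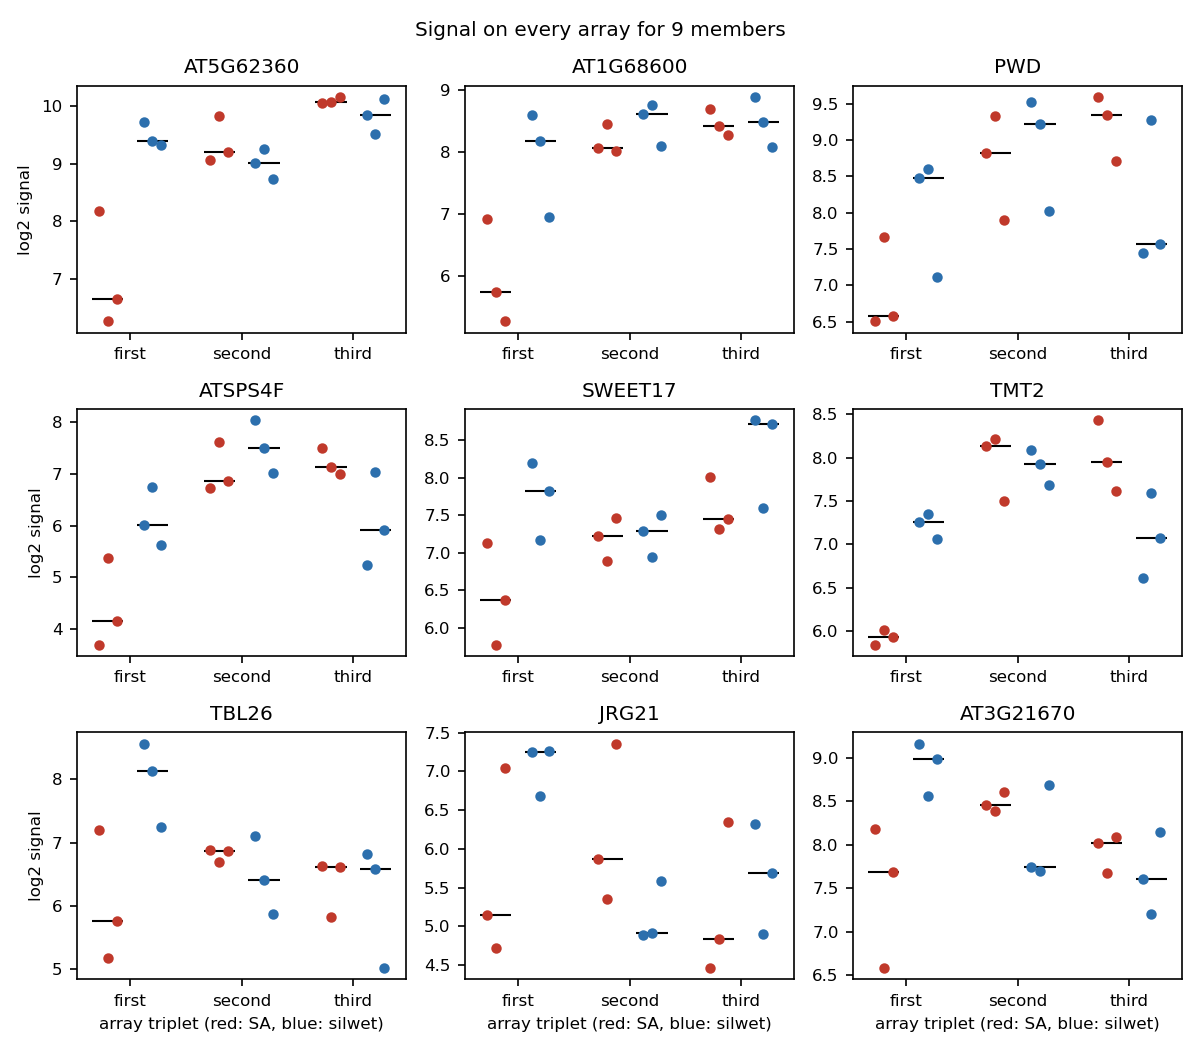
Log2 signal on every array for 9 members, by triplet (SA red and left, silwet blue and right; black lines: group medians; within a group, replicate numbers 1 to 3 run left to right). AT5G62360 is low on the first SA arrays alone, PWD, ATSPS4F and TMT2 are low also on silwet arrays 97 and 99, and SWEET17 is high there. PWD, ATSPS4F and TMT2 lie below their later level on silwet arrays 91 to 93 too.

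A further 6 members act on or in the cell wall. TBL26, of the trichome birefringence-like family that acetylates wall polysaccharides, had 7.21, 5.17 and 5.76 with SA and 8.57, 8.13 and 7.25 with silwet in triplet 1. In triplet 2 it had 6.89, 6.70 and 6.87 with SA and 7.11, 6.41 and 5.88 with silwet. The first silwet arrays were its 3 highest. Its silwet median lay 1.5 from the level and its SA median -0.86, so it was of the second kind. Its relative TBL25, at the edge of the rule, had 5.65, 5.66 and 6.04 with SA and 7.16, 6.87 and 6.64 with silwet. GH9C2, an endo-glucanase, had 6.60, 7.07 and 7.33 with SA and 9.14, 8.59 and 8.15 with silwet, with no overlap. Its triplet 2 values were 9.65, 9.82 and 9.49 with SA and 9.75, 9.20 and 9.33 with silwet. GH9B13, of the same family, had 3.24, 5.57 and 4.55 with SA and 6.20, 6.01 and 5.76 with silwet, and dropped out of the list made without array 100. Over the 6 members, which also include AT5G62360 and AT1G67750, triplet 3 differences were all above 0, from 0.02 to 1.46, and 1 member, GH9C2, was called without array 98 (1.08 ± 0.25, adjusted p = 0.019).

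Another 6 members belong to the NRT1/PTR family of carriers, which take up nitrate, peptides and other small molecules. AT3G21670, also named NPF6.4, had 8.18, 6.58 and 7.69 with SA and 9.16, 8.56 and 8.99 with silwet in triplet 1. In triplet 2 it had 8.46, 8.39 and 8.60 with SA and 7.74, 7.70 and 8.69 with silwet, and in triplet 3 8.02, 7.68 and 8.09 with SA and 7.60, 7.21 and 8.14 with silwet. Only triplet 1 separated the treatments. Of its SA arrays, array 101 lay below all later arrays. AT2G26690, also named NPF6.2, had 8.32, 7.07 and 9.03 with SA and 9.55, 8.58 and 9.68 with silwet, and it overlapped. Its later arrays lay between 7.23 and 8.74. The SA and silwet medians of triplet 1 lay 0.60 and 1.84 above the later level, while SA array 101 lay below every later array. AT1G22550 and AT1G22570 are neighbours in gene order. AT1G22550 had 4.98, 5.15 and 5.49 with SA and 6.93, 6.58 and 6.60 with silwet. AT1G22570 had 6.94, 6.17 and 6.49 with SA and 7.63, 7.74 and 8.01 with silwet. AT2G40460 and AT5G13400 had triplet 1 differences of -1.51 and -1.43. All 6 carriers had differences above 0 in triplet 2 (0.02 to 0.72) and in triplet 3 (0.27 to 0.43), but none passed an adjusted p of 0.05 in either, with or without array 98. All 6 stayed in the list made without array 100, and 3 were of the second kind.

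In all, 4 named members have roles in the chloroplast. AT3G04550, a rubisco accumulation factor that helps the carbon-fixing enzyme assemble, had 6.55, 7.38 and 6.57 with SA and 8.35, 8.23 and 7.64 with silwet in triplet 1. THIC, which makes the pyrimidine part of thiamine, had 7.58, 9.07 and 8.52 with SA and 10.14, 10.11 and 9.50 with silwet. Cpn60beta4, a subunit of the plastid chaperonin, had 4.65, 5.57 and 5.17 with SA and 6.75, 6.50 and 5.93 with silwet. The groups did not overlap in these 3 genes. AT5G52780, of the PAM68 family of photosystem assembly proteins, had 8.60, 7.28 and 7.34 with SA and 8.76, 8.56 and 7.88 with silwet, so array 100 reached the silwet range. All 4 were below 0 in triplet 2, down to -0.50, and above 0 in triplet 3, with a median of 0.57. None was called in triplet 3 with or without array 98.

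Other named members had single roles. MSRB5, which repairs oxidised methionine, had 6.72, 5.14 and 5.19 with SA and 8.18, 6.52 and 6.96 with silwet in triplet 1, overlapping through array 100. AT5G17700, of the MATE efflux carriers, had 6.18, 4.86 and 5.09 with SA and 7.44, 7.02 and 6.35 with silwet, without overlap. AT2G31790, a UDP-glycosyltransferase, had 6.62, 6.71 and 6.49 with SA and 8.73, 8.37 and 7.78 with silwet. Its triplet 2 values were 7.86, 8.32 and 7.95 with SA and 8.50, 8.23 and 7.98 with silwet, and those of triplet 3 were 8.35, 8.46 and 7.85 with SA and 6.96, 8.27 and 6.86 with silwet. The fitted triplet 3 difference of AT2G31790 was 0.86 ± 0.33 (adjusted p = 0.438), and 1.31 ± 0.23 without array 98 (adjusted p = 0.008). AT1G16850, a gene of unknown function, had 6.71, 4.24 and 3.82 with SA and 6.92, 6.03 and 5.25 with silwet, and in later triplets it spanned 3.72 to 8.59 within treatments, with the highest values at replicate number 1.

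A gene list for glucosinolates and indole compounds, made from gene names alone, held AOP3, which modifies the glucosinolate side chain, and BGLU40, a beta-glucosidase. Whether other members act on glucosinolates, or BGLU40 does, was not tested. AOP3 had 8.07, 5.92 and 7.31 with SA and 9.35, 8.45 and 8.79 with silwet, with later differences of 0.02 and 0.46. BGLU40 had 7.47, 6.21 and 5.86 with SA and 8.31, 7.57 and 7.14 with silwet, with later differences of 0.12 and -0.03. The treatments of both genes overlapped in triplet 2.

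Among members with 1 gene, the lowest means of both later differences belonged to SWEET17, AT5G47330, AT1G68600 and to 3 genes not yet described. AT1G11440 had differences of -0.25 and -0.18, AT1G78995 of 0.31 and -0.64, and AT5G59350 of 0.16 and -0.47. No member was at -0.6 or lower in both triplets, and 11 of 169 were below 0 in both. At the upper end stood AT4G28080, a tetratricopeptide repeat protein. It had 4.98, 8.03 and 7.05 with SA and 8.38, 8.90 and 7.74 with silwet in triplet 1, then 8.52, 9.49 and 8.41 with SA and 9.24, 9.26 and 8.71 with silwet in triplet 2. In triplet 3 it had 8.96, 9.10 and 8.61 with SA and 6.75, 9.10 and 6.45 with silwet. Array 100 and silwet arrays 97 and 99 were its 3 lowest arrays, and its fitted triplet 3 difference was 1.46 ± 0.53 (adjusted p = 0.438), or 2.29 ± 0.30 without array 98 (adjusted p = 0.003).

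AT1G31710, a copper amine oxidase, had 4.50, 6.71 and 8.09 with SA and 9.21, 7.99 and 8.28 with silwet in triplet 1, and 4.50, 7.06 and 5.10 on silwet arrays 97, 98 and 99. Without array 100 its triplet 1 difference was -0.88, so it left the list. AT4G17140 likewise moved to -0.67 without array 100, from -1.25 with it. AT4G24830, argininosuccinate synthase of arginine synthesis, moved to -0.86.

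**Figure D5:**
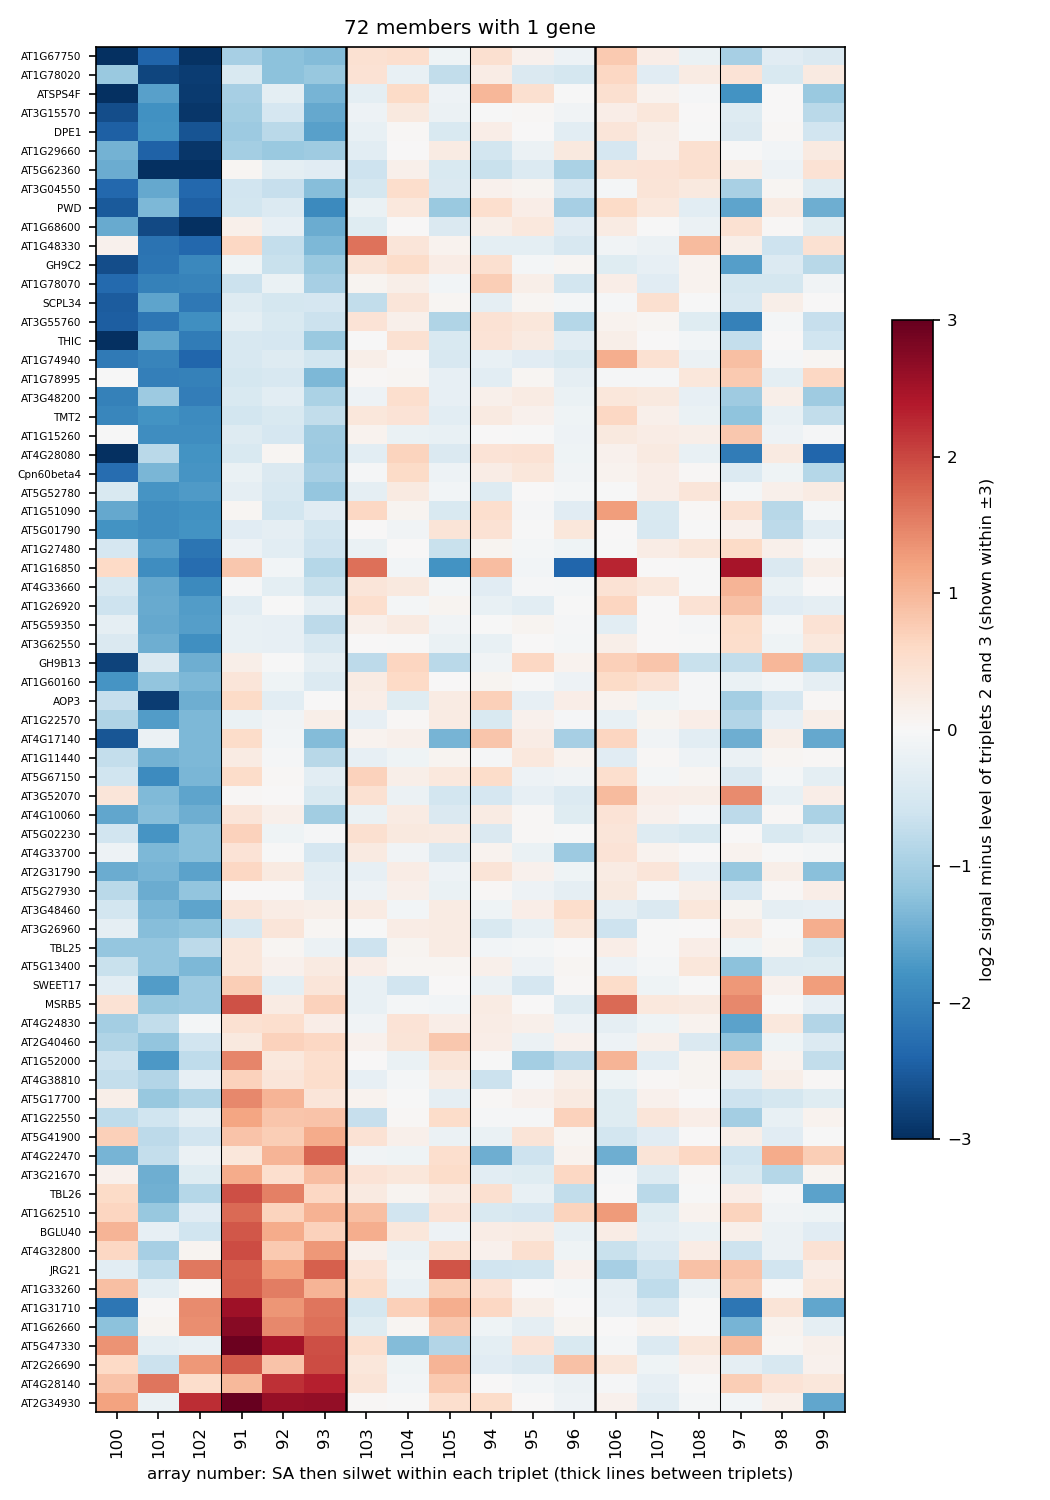
Log2 signal of the 72 members with 1 gene on every array, minus the level over triplets 2 and 3 (blue lower, red higher, colours stop at ±3), with SA left of silwet in each triplet and genes ordered by triplet 1's offset from the level. Most genes are blue on SA arrays 100 to 102, the lowest rows are red on silwet arrays 91 to 93, and part of the genes blue on array 100 are blue on silwet arrays 97 and 99.

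Of 26 gene lists of pathways and families, with 480 of the 13513 probe sets with 1 gene, 5 held a member. Together they held 9 of the 72 members with 1 gene. Lists were matched by gene symbol and synonym, and 56 of the 72 had a locus and no symbol. AT2G31790, a UDP-glycosyltransferase, and AT4G28140, an ERF/AP2 factor, fell in no list, and the MYB list held 0 probe sets. A list without a member thus does not show that its pathway has none. The lists with a member were sugar and starch (SWEET17 and DPE1), cell wall (TBL26 and TBL25), nutrition (AT3G21670 and AT2G26690), glucosinolates (AOP3 and BGLU40) and plastid biogenesis (Cpn60beta4). No probe set of any list passed an adjusted p of 0.05 in triplet 2 or 3. In the sugar list, the median differences of the 11 were -0.38 in triplet 1 and 0.35 in triplet 2, and 6 of 11 were below 0 in triplet 3. In the plastid biogenesis list, 14 of 15 were below 0 in triplet 1 with a median of -0.24, 13 in triplet 2, and 2 in triplet 3 with a median of 0.34. The cell wall list had 28 of 46 below 0 in triplet 1 (median -0.18), and the nutrition list 7 of 13 (median -0.32). The glucosinolate list had 14 of 17 below 0 in triplet 1, with a median of -0.20. The list of SA synthesis and defence held no member, and its 7 tested probe sets had a median of 0.59 in triplet 1. Over all tested probe sets 57.4% were below 0 in triplet 1, 54.5% in triplet 2 and 45.8% in triplet 3.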

How the data were processed

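The deposited table held 1 intensity per probe set and array on a linear scale, made by the authors with MAS5, per the submitters' processing notes; version, detection calls and genome build are not given in the sources used here. Gene names came from the platform annotation, updated through the RefSeq table of TAIR10.1 (13513 of 22746 probe sets had 1 gene, 503 several, and 8730 were not named here). Intensities were used as deposited and taken as log2 by the re-analysis.

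The rule used the 6 arrays of triplet 1. Triplets 2 and 3, 12 arrays in 4 groups of 3, were fitted apart with limma 3.58.1 in R 4.3.3 (group means, trend), after leaving out the lowest 30% of probe sets (6823). This kept 15923 probe sets, 167 of them members. P-values were Benjamini-Hochberg adjusted over all 15923. The fit was tested on simulated data first, with independent noise and 200 probe sets lowered in triplet 2. It recovered 29% of those lowered by 1 log2 unit, 87% at 2 units and 97.5% at 3. An absence of calls thus does not exclude differences near 1. Differences described without a test are of group medians; fitted ones are of means, with the model's SE.

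The members, gene lists and functional groups were chosen with earlier results of these data known. Named genes were the 12 lowest differences, list members, up to 6 at each end of the later mean difference, and the 3 nearest the threshold; genes of the functional groups and those named for their calls without array 98 or their offsets were chosen after their values were seen. Same-numbered arrays of the 2 treatments deviated together (r = 0.22 to 0.49 in triplet 2, 0.26 to 0.44 in triplet 3). Replicate numbers were thus taken to pair them where differences are given by replicate number. The main fit left this pairing out, and a replicate block was an alternative. Between silwet triplets 2 and 3, same-numbered arrays had r = -0.05, 0.06 and 0.37. Other alternatives were the filter, normalization, a floor, array weights, all 18 arrays and leaving out arrays. Promoter motifs were not analysed here.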

Additional observations from a re-analysis of the deposited data

Results flagged for a closer look

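In 3 of the 72 members with 1 gene (4.17%, against 6.37% of all tested probe sets), every replicate number had one sign of SA minus silwet in triplet 2 and the other sign in triplet 3. AT4G22470, of the lipid transfer protein family, had differences of 1.36, 0.49 and 0.40 in triplet 2 and -0.88, -0.73 and -0.12 in triplet 3, a change in the median difference of -0.88. AT4G28140, an ERF/AP2 transcription factor, had 0.38, 0.02 and 0.95 and then -0.77, -0.66 and -0.34, a change of -0.92. AT3G55760 had -0.03, -0.19 and -0.06 and then 2.13, 0.14 and 0.33, a change of 0.95, with the largest difference at replicate number 1, where silwet array 97 was low. In limma's test of the change itself none passed, with adjusted p of 0.554 for AT4G22470, 0.550 for AT4G28140 and 0.586 for AT3G55760.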

How the results depend on the processing

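Rule settings moved the member count: 68 with a limit of -1.5, 310 with -1, 102 with a silwet minimum of 7, and 123 to 485 without 1 array each (485 without SA array 101, 441 without 102, and also more than 1.5 times the main count without silwet array 93). Triplet 3's member median of 0.30 was 0.021 for members chosen without array 100, and 0.24 to 0.40 without 1 array each; triplet 2's 0.07 ran from -0.03 to 0.16. Calls over all probe sets without 1 array each ranged over 0 to 2 in triplet 2, 0 to 2125 in triplet 3, 0 to 3536 between silwet triplets, 0 to 1 between SA triplets and 0 to 829 for the change in treatment difference; the highest of triplet 3, silwet and change counts came without silwet array 98. With array weights the calls were 12 in triplet 2, 6434 in triplet 3, 1149 for their mean, 7728 between silwet triplets, 2 between SA triplets and 4182 for the change. The weights, from 0.242 on array 98 to 4.78 on array 95, rest on 3 arrays a group. They were 4.195 on array 99 and 3.683 on array 107, so weighted results for these groups rest mostly on arrays 95, 99 and 107. The 1 call between silwet triplets became 0 without a filter, 2 with quantile normalization, 4 with a floor, 10 with the replicate block and 0 with all 18 arrays in the fit. The replicate block gave 3 calls between SA triplets, 0 in every treatment comparison and none of a member, so it changed no other call. Non-overlap upward in triplet 3 went to 68 members without array 98 and 31 without 97, chosen after seeing the data. The cause of these shifts was not tested. Dim probe sets scatter widely on the log2 scale, 2 members were too dim to test, and 3 arrays a group limit precision.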
